A study of Mus musculus with 12 samples.

Results

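Prostaglandins, thromboxane and leukotrienes are short-lived lipid signals made from arachidonic acid, and 9 genes of their synthesis and sensing were followed here: Ptgs1, Ptgs2, Ptges, Hpgds, Tbxas1, Alox5, Alox5ap, Lta4h and Ltb4r1. They were listed by name, for their place in the pathway, with earlier results of these data known. All 9 had a row among the 16805 genes of the neutrophil table and the 16954 genes of the monocyte table, and all 9 had enough reads to be tested in both.

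The 12 RNA-seq libraries came from spleen cells of wild-type (WT) mice around cryo-thermal therapy (CTT), which freezes and then heats a tumor. Neutrophils were picked out by PE-labelled anti-Ly6G, in 3 libraries from tumor-bearing mice given no therapy and in 3 from mice 12 h after CTT. Monocytes were picked out by PE-labelled anti-CCR2 from mice that all had received CTT 5 days before, 3 libraries without and 3 with anti-Ly6G given to the mice. The sources used here give no strain, age, tumor line or number of mice behind a library. The p-values therefore reflect how far these libraries differ from each other, which may be partly technical.

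The pathway has a pair of arms. In the prostanoid arm, the cyclooxygenases turn arachidonic acid into an unstable endoperoxide: Ptgs1 encodes the form that most cells keep at a steady level and Ptgs2 the form induced by inflammatory signals. The endoperoxide is then passed to a terminal synthase, which is prostaglandin E synthase (Ptges), the haematopoietic prostaglandin D synthase (Hpgds) or thromboxane A synthase (Tbxas1). In the leukotriene arm, 5-lipoxygenase (Alox5) works with its membrane partner, the 5-lipoxygenase-activating protein (Alox5ap), to make the epoxide that leukotriene A hydrolase (Lta4h) converts to leukotriene B. Ltb4r1 encodes the high-affinity receptor for that product, through which neutrophils and other leukocytes are drawn to sites of injury. Macrophages and platelets are textbook sources of thromboxane, and neutrophils and monocytes of leukotriene B.

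The genes lie at separate places in the genome (mm10, GENCODE release M21 coordinates): Ptgs1 on chromosome 2 at 36230426 to 36252272, Ptges on the same chromosome at 30889471 to 30929863, and Ptgs2 on chromosome 1 at 150100031 to 150108227. Hpgds (65117293 to 65144908), Tbxas1 (38875404 to 39084585) and Alox5 (116410077 to 116461178) are on chromosome 6 but far apart. Alox5ap is on chromosome 5 at 149264767 to 149288153, Lta4h on chromosome 10 at 93453411 to 93484875 and Ltb4r1 on chromosome 14 at 55765962 to 55768494. Ptgs1, Tbxas1 and Alox5ap overlap exons of non-coding genes on the opposite strand (Gm43621, Gm42962 and Gm19719), and since the strand setting of the counting is not given, reads of those genes may have been counted with them.

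The 250 bases before the annotated start are shown for 4 members that moved in the monocyte comparison, 2 that rose (Alox5, Ltb4r1) and 2 that fell (Ptgs1, Ptgs2), so that the sequence of the genes that moved in opposite directions can be read side by side. Sequences are RefSeq's for GRCm38.p6, given 5′ to 3′ on the gene's strand, at chr2:36230176-36230425 (+) for Ptgs1, chr1:150099781-150100030 (+) for Ptgs2, chr6:116461179-116461428 (-) for Alox5 and chr14:55765712-55765961 (+) for Ltb4r1. Capitals mark matches, on either strand, to any of 6 short motifs searched.
Ptgs1: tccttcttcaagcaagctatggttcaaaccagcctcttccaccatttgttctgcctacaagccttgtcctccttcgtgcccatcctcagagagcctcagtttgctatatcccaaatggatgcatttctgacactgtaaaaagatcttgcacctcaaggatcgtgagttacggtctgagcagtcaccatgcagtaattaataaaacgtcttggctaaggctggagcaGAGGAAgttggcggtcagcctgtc
Ptgs2: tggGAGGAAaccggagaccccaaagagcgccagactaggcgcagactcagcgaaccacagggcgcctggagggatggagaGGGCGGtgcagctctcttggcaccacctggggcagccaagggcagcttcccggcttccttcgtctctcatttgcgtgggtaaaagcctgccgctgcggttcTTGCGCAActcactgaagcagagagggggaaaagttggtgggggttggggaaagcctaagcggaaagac
Alox5: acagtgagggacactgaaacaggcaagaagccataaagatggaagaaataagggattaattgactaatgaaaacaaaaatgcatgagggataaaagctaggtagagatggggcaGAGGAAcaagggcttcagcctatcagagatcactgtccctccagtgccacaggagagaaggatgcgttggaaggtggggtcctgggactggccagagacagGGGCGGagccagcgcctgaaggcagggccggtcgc
Ltb4r1: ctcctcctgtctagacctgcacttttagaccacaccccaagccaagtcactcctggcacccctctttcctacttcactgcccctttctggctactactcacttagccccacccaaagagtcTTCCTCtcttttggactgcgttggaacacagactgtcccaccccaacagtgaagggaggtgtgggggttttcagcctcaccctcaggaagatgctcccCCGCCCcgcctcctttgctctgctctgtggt
The motifs were the PU.1 core GAGGAA, which 23.3% of 32851 promoter windows of the same length hold, the GC box GGGCGG (32.7%), the TATA box TATAAA (12.4%), the CRE half-site ACGTCA (6.47%), the E-box CACGTG (6.02%) and the C/EBP motif TTNCGNAA (2.04%). All 8 members with a window in the table held the PU.1 core, which in Ptgs1 ended 19 bases before the start. The GC box was present in Ptgs2, Ptges, Alox5 and Ltb4r1, and the TATA box in Tbxas1, where 2 overlapping matches lay. The CRE half-site and the E-box were in none of these windows, and bases past the annotated start were not searched. Ptgs2 was the member with a C/EBP match, TTGCGCAA, from 69 to 62 bases before its start. Its window also overlaps an exon of the non-coding gene Ptgs2os. The windows of Tbxas1 (38918736 to 38918985) and Ptges (30903298 to 30903547) lie inside the GENCODE bounds of those genes. Those of Tbxas1 and Hpgds overlap an exon of the gene itself, and that of Tbxas1 also one of Gm42962. A match describes the letters and shows no binding.

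Libraries held 30942849 to 34935547 counted reads in neutrophils and 31865982 to 35956571 in monocytes, so that counting error is small for every member but Ptges. The selections were mixed. Ly6g, the surface protein used to capture the neutrophils, stood at 11.8 ± 2.66 CPM (counts scaled to library size; SD, n = 3) in control and 19.2 ± 6.42 CPM in CTT neutrophils, against 13.6 ± 2.26 CPM in CTT monocytes and 56.1 ± 7.19 CPM with anti-Ly6G. Ccr2, used to capture the monocytes, stood at 216 ± 41.5 and 513 ± 73.9 CPM there, above the neutrophil groups (96.2 ± 22.1 and 169 ± 40.5 CPM). CPM were scaled within each cell type, and levels across cell types were not tested. No gene of the 11 marker lists with a row in the tables was at 0 in any library. Neutrophil control replicate 1 stood apart, with erythroid markers that summed to 15207 CPM against 432 to 2582 CPM in the other 5 neutrophil libraries. Its platelet and megakaryocyte markers (333 against 116 to 194 CPM) and cell cycle genes (5293 against 973 to 1424 CPM) also summed highest. Its B cell markers summed lowest (3140 against 6460 to 7903 CPM). In bulk RNA, fewer cells of a type and less RNA per cell cannot be told apart.

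Alox5ap was the most abundant member per base of transcript in all 4 groups and Ptges the least. In FPKM, the authors' unit of reads scaled to gene length and library size, Alox5ap averaged 169 ± 14.4 in control neutrophils, 294 ± 22.7 after CTT, 184 ± 20.4 in CTT monocytes and 384 ± 26.7 with anti-Ly6G. The group means of Ptges lay between 0.138 and 0.656. These FPKM levels span tables that were made separately and were not tested against each other.

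The order of the members below it differed between the groups. In control neutrophils Ptgs2 came next at 57.5 ± 15.3 FPKM, with libraries overlapping those of Lta4h (51.9 ± 4.86 FPKM), and Ptgs1 stood at 13 ± 3.1 FPKM, with Ltb4r1 (10.6 ± 0.58 FPKM) and Alox5 (9.85 ± 1.61 FPKM) close below. In CTT monocytes Ptgs1 (46.2 ± 10.2 FPKM), Ptgs2 (42.5 ± 4.47 FPKM) and Lta4h (48.8 ± 5.17 FPKM) overlapped. Hpgds stood at 4.4 ± 0.346 FPKM in control neutrophils and at 26.6 ± 6.3 FPKM in CTT monocytes. With anti-Ly6G, Ltb4r1 came after Alox5ap and Lta4h at 45.5 ± 6.66 FPKM, above Ptgs1 (29.2 ± 2.55 FPKM), Alox5 (24.1 ± 3.04 FPKM), Ptgs2 (16.7 ± 7.49 FPKM) and Hpgds (15.3 ± 1.4 FPKM). Neighbours in that order overlapped between Ptgs1 and Alox5, Alox5 and Ptgs2, and Ptgs2 and Hpgds.

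The place of Tbxas1 and Lta4h in this order depends on gene length. The deposited FPKM of Tbxas1 (0.671 to 2.61 as group means) imply a length of 37767 bases, against 9094 bases for its GENCODE exons, and those of Lta4h imply 2066 against 6102 bases. With the exon lengths, an alternative chosen after seeing the data, Tbxas1 averaged 2.94 FPKM in control neutrophils, 2.78 after CTT, 10.8 in CTT monocytes and 7.3 with anti-Ly6G, and Lta4h 16.5 to 24.2. Ratios between groups are not touched by this.

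**Figure D1:**
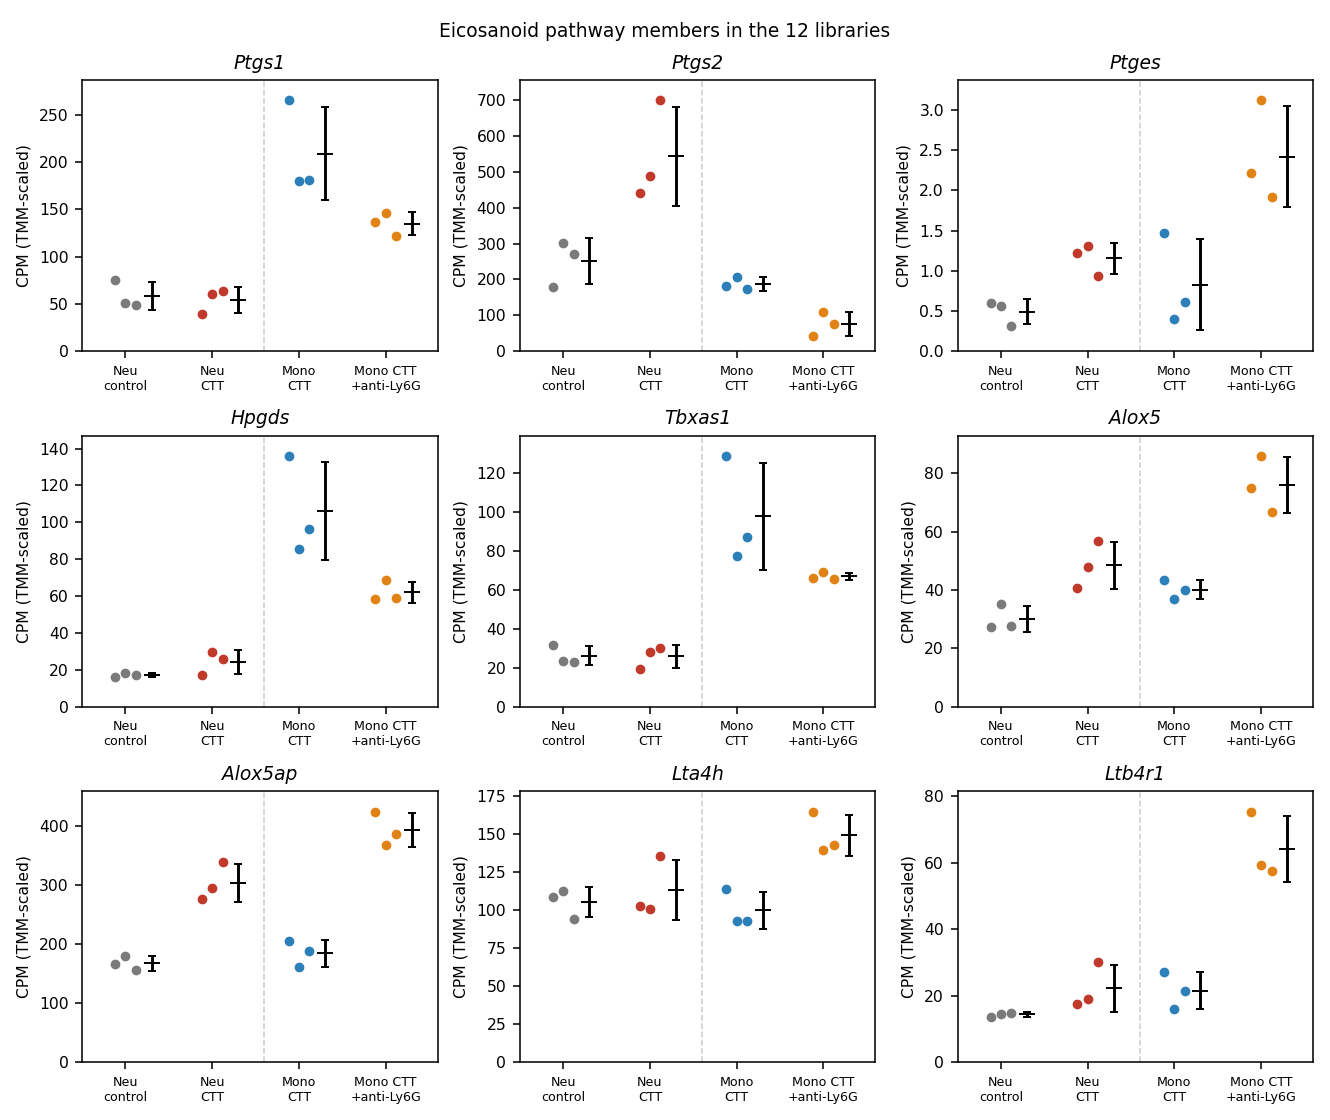
Level of each member in TMM-scaled CPM (vertical axes, from 0) in the 12 libraries, with 1 point per library and the mean ± SD of 3 libraries as a black bar; Neu is neutrophil, Mono is monocyte. Alox5ap and Ltb4r1 are highest in the anti-Ly6G monocytes, Ptgs2 in the neutrophils after CTT, and Ptgs1, Hpgds and Tbxas1 in the CTT monocytes without anti-Ly6G. CPM were scaled within each cell type, so the order across cell types is a description.

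The neutrophil comparison asked how the cells differ 12 h after CTT from those of untreated tumor-bearing mice. Alox5ap was the member that rose, and no member fell. At a threshold of 0.05 on the adjusted p of edgeR's quasi-likelihood test, 0.567% of 13058 tested genes rose and 0% fell (1830 genes had an unadjusted p under 0.05, in either direction, and DESeq2 called 106 fallen). A wider group of 5 members, Ptgs2, Ptges, Alox5, Alox5ap and Ltb4r1, had every CTT library above every control library, which was so for 13.6% of all tested genes. The median log2 fold change of the 9 members was 0.62, against -0.02 over all genes.

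In the leukotriene arm, Alox5ap stood at 166, 181 and 156 CPM in the 3 control libraries and at 277, 295 and 340 CPM after CTT. All CTT libraries were above all controls, and the mean went from 168 ± 12.8 to 304 ± 32.5 CPM (log2 fold change 0.86, SE 0.13, edgeR adjusted p = 0.0467). The call sat near the threshold: without control replicate 1 the adjusted p was 0.0143, while leaving out any of the other 5 libraries ended the call, with log2 fold changes of 0.77 to 0.93 and adjusted p up to 0.226. Alox5, its partner enzyme, read 27.2, 35.2 and 27.6 CPM in controls and 40.8, 47.9 and 56.7 CPM after CTT. The groups did not overlap, but the difference of 0.69 (SE 0.18) did not pass (edgeR adjusted p = 0.198), although DESeq2 called it (adjusted p = 0.0338). The receptor gene Ltb4r1 went from 13.7 to 15.0 CPM in controls to 17.5 to 30.2 CPM, with CTT replicate 3 the highest (0.62, SE 0.23, edgeR adjusted p = 0.342). Lta4h, the hydrolase that ends the synthesis of leukotriene B, overlapped between the groups at 94.4 to 113 and 101 to 136 CPM (0.11, SE 0.15, edgeR adjusted p = 0.737), and its sign turned to -0.04 without CTT replicate 3.

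In the prostanoid arm, Ptgs2 read 180, 302 and 271 CPM in the controls and 441, 488 and 699 CPM after CTT. Its lowest value was control replicate 1, the library with the erythroid markers, and the groups did not overlap. The mean moved from 251 ± 63.7 to 543 ± 138 CPM, a log2 fold change of 1.11 (SE 0.25) that did not pass in edgeR (adjusted p = 0.144) and passed in DESeq2 (adjusted p = 0.003). Without control replicate 1 it was 0.93 (SE 0.19, edgeR adjusted p = 0.0558). Ptges, the synthase most often paired with Ptgs2, was scarce at 0.316 to 0.599 CPM in controls and 0.931 to 1.31 CPM after CTT (1.22, SE 0.41, edgeR adjusted p = 0.317).

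Ptgs1 and the synthases Hpgds and Tbxas1 overlapped between the neutrophil groups. Ptgs1 averaged 58.4 ± 14.6 CPM in controls and 54.5 ± 13.7 CPM after CTT (-0.10, SE 0.25, edgeR adjusted p = 0.86), and Tbxas1 ranged from 23.1 to 32.0 CPM and from 19.3 to 30.4 CPM (-0.02, SE 0.22, edgeR adjusted p = 0.973). Both signs were positive without control replicate 1 (0.13 and 0.15) and without CTT replicate 1 (0.10 and 0.16). Hpgds ranged from 16.2 to 18.4 CPM and from 17.0 to 29.6 CPM (0.49, SE 0.22, edgeR adjusted p = 0.366). Summed markers of several cell types were higher in every CTT library than in every control. The 15 neutrophil markers summed to 4217 to 6184 CPM in controls and 7879 to 13011 CPM after CTT, with 2 of the 15 genes risen, and the 10 monocyte markers to 2315 to 2862 and 3251 to 5622 CPM, with none called. Of these 10 genes 2 were higher and 1 lower in every CTT library, and Nr4a1 read 625 to 1180 and 1600 to 3290 CPM. The 9 dendritic cell markers summed to 441 to 588 and 658 to 992 CPM, with none called. Of these 9 genes 2 were higher and 4 lower in every CTT library, with a median log2 fold change of -0.24. Ccr7 alone read 108 to 278 and 348 to 668 CPM. The 12 mast cell and basophil markers summed to 184 to 214 and 333 to 393 CPM. In that list 1 gene rose (Hdc, 87.4 to 114 and 242 to 278 CPM), and the median was -0.06. The 12 red pulp macrophage markers overlapped at 3202 to 3477 and 3128 to 4001 CPM, with none called. Their part in the differences of the members was not tested.

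**Figure D2:**
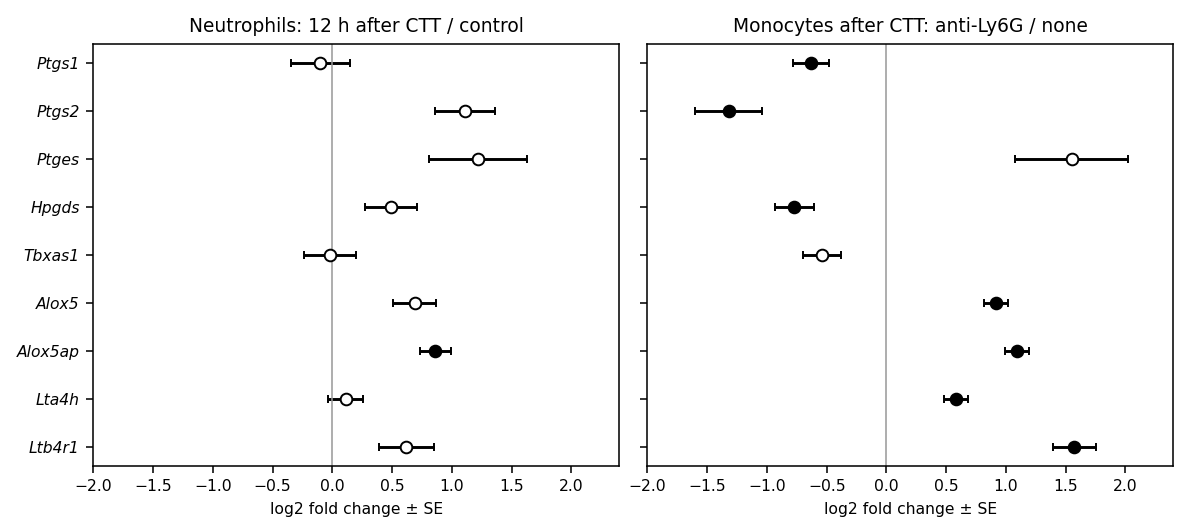
Log2 fold change of each member (horizontal axis) with its SE as a bar, in neutrophils 12 h after CTT against control (left) and in monocytes of CTT mice with against without anti-Ly6G (right); filled points passed an edgeR adjusted p of 0.05. In neutrophils Alox5ap (0.86) is filled; in monocytes Ptgs1, Ptgs2 and Hpgds are filled on the falling side and Alox5, Alox5ap, Lta4h and Ltb4r1 on the rising side.

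The monocyte comparison asked what anti-Ly6G, an antibody given to deplete neutrophils, changed in the CCR2-selected cells of mice 5 days after CTT. All 4 leukotriene genes rose (Alox5, Alox5ap, Lta4h and Ltb4r1), and 3 of the 5 prostanoid genes fell (Ptgs1, Ptgs2 and Hpgds). The other prostanoid genes did not pass: Ptges was higher and Tbxas1 lower in every library with the antibody. Among all 13294 tested genes 10.2% rose and 5.12% fell. No member had overlapping groups, against 36% of all tested genes without overlap; 5 members were higher and 4 lower with anti-Ly6G, against 20.6% and 15.4%. The median log2 fold change of the 9 members, 0.58, averages over opposite movements, and that of all genes was 0.

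Ltb4r1, the leukotriene B receptor gene, rose. It stood at 27.2, 16 and 21.5 CPM in the 3 CTT libraries and at 75.4, 59.4 and 57.4 CPM with anti-Ly6G. Every library with the antibody was above every library without it, and the mean went from 21.6 ± 5.58 to 64.1 ± 9.88 CPM, 2.97-fold (log2 fold change 1.57, SE 0.18, edgeR adjusted p = 0.000964).

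Alox5ap read 206, 161 and 188 CPM without the antibody and 425, 368 and 387 CPM with it. The groups were well apart at means of 185 ± 22.6 and 393 ± 29.2 CPM, a 2.12-fold difference (1.09, SE 0.10, edgeR adjusted p = 0.000323). Alox5, the enzyme that Alox5ap presents with arachidonic acid, read 43.5, 37.0 and 40.0 CPM without and 74.9, 85.9 and 66.8 CPM with anti-Ly6G. Its mean went from 40.1 ± 3.22 to 75.9 ± 9.6 CPM (0.92, SE 0.10, edgeR adjusted p = 0.000781). Lta4h rose least, from 114, 93.2 and 93.1 CPM to 165, 140 and 143 CPM (0.58, SE 0.10, edgeR adjusted p = 0.00576). Its highest library without the antibody, replicate 1, was still below its lowest with it. The calls on these 4 genes held in every alternative run, with adjusted p up to 0.0371 when 1 library was left out.

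Ptgs2 fell. It stood at 181, 208 and 173 CPM in the CTT monocytes and at 41.5, 109 and 75.2 CPM with anti-Ly6G, where the 3 libraries spread widely but all lay below the lowest without the antibody. The mean of 75.2 ± 33.7 CPM was 2.49-fold below that of 187 ± 18.5 CPM (log2 fold change -1.32, SE 0.28, edgeR adjusted p = 0.0149). Without anti-Ly6G replicate 3 the change was again -1.32, but the adjusted p was 0.0534.

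Ptgs1 and Hpgds fell with it, and in both the first CTT library was the highest. Ptgs1 read 265, 180 and 181 CPM without and 136, 146 and 122 CPM with anti-Ly6G (-0.63, SE 0.15, edgeR adjusted p = 0.0232). Hpgds read 136, 85.6 and 96.5 CPM without and 58.4, 68.5 and 59.1 CPM with it (-0.77, SE 0.16, edgeR adjusted p = 0.0124). Without CTT replicate 1 both were smaller, at -0.42 (adjusted p = 0.00354) and -0.56 (adjusted p = 0.00169). The Ptgs1 call was lost when any 1 of the 3 anti-Ly6G libraries was left out (adjusted p 0.0799, 0.0503 and 0.0816 without replicates 1, 2 and 3), and the Hpgds call without replicate 1 (0.0591) or 3 (0.0506).

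Tbxas1 and Ptges lay near the threshold. Tbxas1 read 129, 77.6 and 87.2 CPM without and 66.4, 69.1 and 65.8 CPM with anti-Ly6G (-0.54, SE 0.16, edgeR adjusted p = 0.0533). The antibody group was tight and CTT replicate 1 stood highest in the other group. Without that library the change was -0.30 and passed (adjusted p = 0.015). Ptges read 1.47, 0.401 and 0.613 CPM without and 2.22, 3.12 and 1.92 CPM with the antibody (1.55, SE 0.47, edgeR adjusted p = 0.058). Without CTT replicate 1 its difference was 2.24 (adjusted p = 0.00475), and at levels of about 1 CPM its value carries more counting error than that of the other members. DESeq2 called both (adjusted p = 0.00728 and 0.0112).

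Markers of some other cells moved with these members. The 15 neutrophil markers summed to 4977 to 7012 CPM in the CTT monocytes and to 13851 to 18838 CPM with anti-Ly6G, and 13 of the 15 rose. The 12 red pulp macrophage markers summed to 10035 to 16695 CPM without the antibody, highest in replicate 1, and to 7987 to 8762 CPM with it, and 8 of the 12 fell. Of the 10 monocyte markers 6 rose and 3 fell. Platelet and megakaryocyte markers, which stand for another thromboxane source, summed to 173 to 217 and 173 to 223 CPM, with 1 of 15 risen (Pf4). Mast cell and basophil markers, a further source of prostaglandin D and leukotrienes, summed to 213 to 220 and 297 to 339 CPM. Of those 12 genes 1 rose, Hdc, from 96.3 to 116 CPM to 180 to 245 CPM. The median log2 fold change of that list was -0.07. Eosinophil markers summed to 312 to 481 and 223 to 242 CPM, with 1 of 8 fallen. Erythroid markers summed to 1502 to 2366 and 881 to 1438 CPM, with 3 of 12 fallen. Cell cycle genes summed to 1430 to 1634 and 1823 to 2069 CPM, with 7 of 12 risen. Of 10 B cell markers 2 fell, and of 11 T and NK cell markers 4 rose and 1 fell. None of 9 dendritic cell markers was called. The part of these cells in the rise of the 4 leukotriene genes and the fall of Ptgs1, Ptgs2 and Hpgds was not tested.

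**Figure D3:**
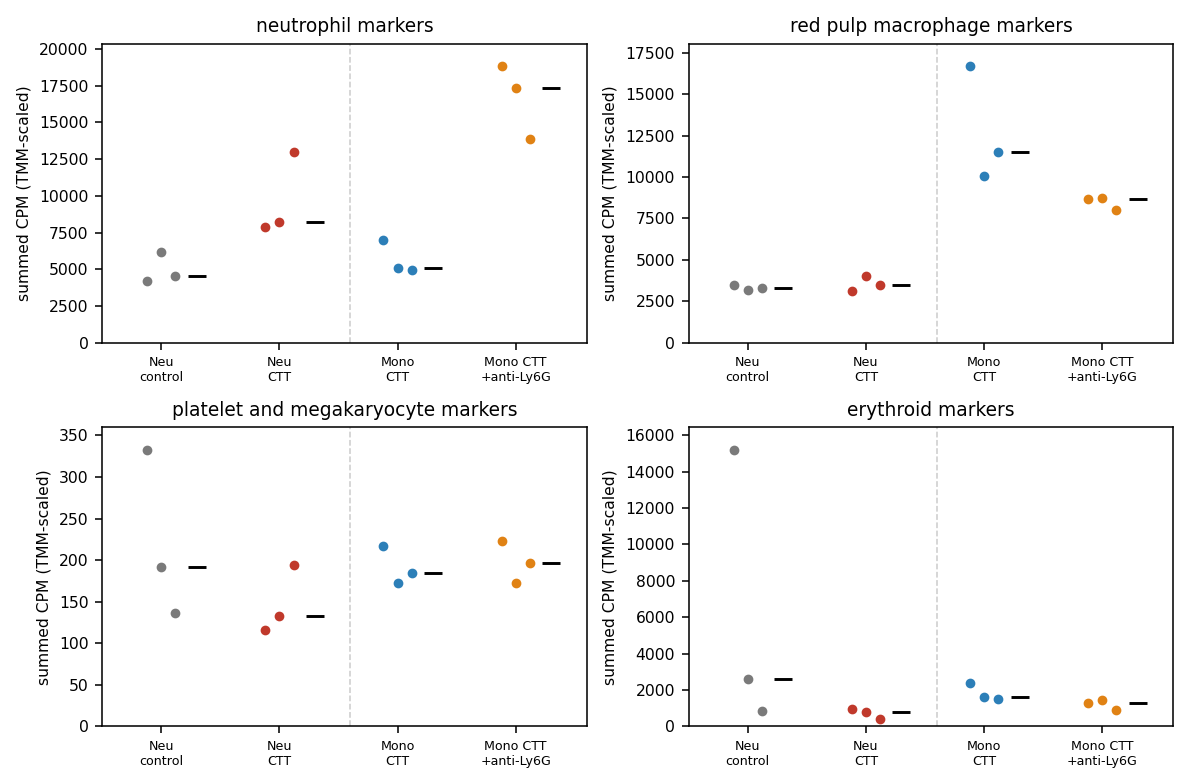
Summed TMM-scaled CPM of 4 marker lists (vertical axes, from 0) in the 12 libraries, with 1 point per library and the median of 3 as a black dash. Neutrophil markers are highest in the anti-Ly6G monocytes (13851 to 18838), red pulp macrophage markers in the CTT monocytes (10035 to 16695), and erythroid markers in neutrophil control replicate 1 (15207). CPM were scaled within each cell type, so the order across cell types is a description.

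The balance of the isoenzymes can be read within a library. The FPKM ratio of Ptgs2 to Ptgs1 was 2.44 to 6.07 in control neutrophils (median 5.64) and 8.22 to 11.6 after CTT (median 11.2), without overlap. In CTT monocytes it was 0.696 to 1.19, and with anti-Ly6G 0.312 to 0.76, where the groups overlapped. The mean log2 ratio thus differed by 1.23 between the neutrophil groups and by -0.81 between the monocyte groups, which is a description with no test. The lowest ratios of their groups, 2.44 and 0.312, belonged to neutrophil control replicate 1 and anti-Ly6G replicate 1. The ratio of Alox5ap to Alox5 moved far less, from 15.8 to 18.8 in control neutrophils, 18.4 to 20.8 after CTT, 13.4 to 14.5 in CTT monocytes and 13.1 to 17.7 with anti-Ly6G, with overlap in both comparisons.

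**Figure D4:**
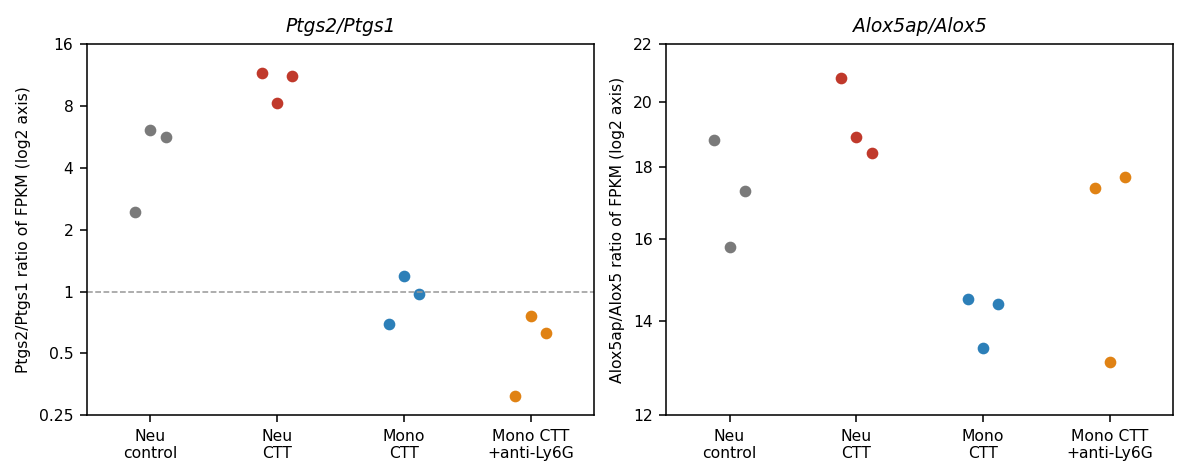
Ratio of deposited FPKM within each library (log2 vertical axes) of Ptgs2 to Ptgs1 (left) and of Alox5ap to Alox5 (right), 1 point per library. The Ptgs2 to Ptgs1 ratio is above 2 in all neutrophil libraries and below 1.2 in all monocyte libraries, while the Alox5ap to Alox5 ratio spans 13.1 to 20.8 over all 12.

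The other genes of the pathway were described by 8 lists with 72 symbols. In neutrophils 1 of 60 tested genes rose and none fell, against 0.567% and 0% of all tested genes. Their median log2 fold change was 0.04. In monocytes 11 of 61 rose and 2 fell, with a median of 0, against 10.2% and 5.12% of all tested genes. None of these counts has a test of its own.

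Upstream of both arms, 15 genes of arachidonic acid release were tested, and Anxa1 was called, in monocytes. Anxa1 encodes annexin A1, a protein known for restraining phospholipase A and for signalling through Fpr2. It rose from 158 to 223 CPM without to 448 to 578 CPM with anti-Ly6G (1.51, SE 0.14, edgeR adjusted p = 0.000438). In neutrophils it stood at 128 to 185 and 199 to 339 CPM, apart but not past the threshold (0.81, SE 0.24, edgeR adjusted p = 0.263). Pla2g7, which inactivates platelet-activating factor, was the gene of smallest p in neutrophils (107 to 129 against 179 to 247 CPM, 0.85, SE 0.16, edgeR adjusted p = 0.0837).

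Of 6 other prostanoid synthases, Ptgis, the prostacyclin synthase, fell in monocytes from 28.7 to 39.7 CPM to 19.5 to 21.5 CPM (-0.65, SE 0.13, edgeR adjusted p = 0.0129). The call was lost without anti-Ly6G replicate 1 (adjusted p = 0.0503) or 3 (0.0516). The next by p, Prxl2b, which makes prostaglandin F, ranged over 38.7 to 67.0 and 32.1 to 43.6 CPM and did not pass (-0.46, SE 0.19, edgeR adjusted p = 0.143). Among 7 genes of prostanoid transport and inactivation 1 rose and 1 fell in monocytes, against 10.2% and 5.12% of all tested genes. Hpgd, the dehydrogenase that starts the breakdown of prostaglandins, fell from 208 to 331 CPM to 149 to 170 CPM (-0.70, SE 0.15, edgeR adjusted p = 0.0169), a call lost without anti-Ly6G replicate 1 (adjusted p = 0.0752) or 3 (0.0545). Ptgr1, a reductase that inactivates leukotriene B and prostaglandins, rose from 9.12 to 11.9 CPM to 21.2 to 26.0 CPM (1.10, SE 0.13, edgeR adjusted p = 0.00108).

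Among 7 prostanoid receptors tested, Ptgir, the prostacyclin receptor, rose in monocytes from 5.43 to 10.4 CPM to 14.1 to 17.2 CPM (1.00, SE 0.21, edgeR adjusted p = 0.0156). Its call was lost without CTT replicate 3 (adjusted p = 0.0695) or anti-Ly6G replicate 1 (0.0657), and its adjusted p was 0.05 without anti-Ly6G replicate 2. Ptger4, a prostaglandin E receptor that overlaps an exon of Ttc33 on the opposite strand, ranged from 51.0 to 79.5 CPM in control neutrophils and from 99.1 to 157 CPM after CTT (0.88, SE 0.23, edgeR adjusted p = 0.203), and in monocytes from 22.1 to 30.1 and 28.0 to 29.6 CPM.

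The branch to the cysteinyl leukotrienes starts from the same epoxide that Lta4h uses, and 7 of its genes were tested. Ggt5, a gamma-glutamyl transferase that processes leukotriene C, was the gene of all 8 lists that rose in neutrophils, from 11.1 to 13.1 CPM to 23.3 to 24.7 CPM (0.97, SE 0.14, edgeR adjusted p = 0.0422). Without control replicate 1 it passed (adjusted p = 0.0128), and leaving out any other library ended the call (adjusted p 0.137 to 0.215). In monocytes Ggt1, of the same enzyme family, rose from 0.956 to 1.62 CPM to 11.2 to 27.1 CPM, and Dpep2, a dipeptidase for leukotriene D whose exons overlap those of Dus2 on the opposite strand, rose from a mean of 8.98 ± 2.42 to 17.4 ± 2.36 CPM (0.95, SE 0.20, edgeR adjusted p = 0.0147). The Dpep2 call was lost without anti-Ly6G replicate 1 (adjusted p = 0.0638). The other 5 of the 7 genes did not pass in monocytes, where 10.2% of all tested genes rose. Among these 5, Ltc4s went the other way with overlap, from 3.64 to 6.71 CPM to 2.31 to 3.74 CPM (-0.82, SE 0.29, edgeR adjusted p = 0.0953). Cysltr1, a receptor for these leukotrienes, rose from 4.78 to 6.62 CPM to 9.98 to 12.2 CPM (0.95, SE 0.16, edgeR adjusted p = 0.0057), while Cysltr2 stood at 1.91 to 3.93 and 1.62 to 3.01 CPM (-0.39, SE 0.34, edgeR adjusted p = 0.489).

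Of 10 tested genes of other lipoxygenases and of receptors tied to resolution, 2 rose in monocytes and none fell. Among all tested genes 10.2% rose and 5.12% fell. Fpr2, a receptor for annexin A1 and lipoxin A that overlaps exons of Fpr3 on the same strand, rose from 29.2 to 40.7 CPM to 74.0 to 85.8 CPM (1.27, SE 0.12, edgeR adjusted p = 0.000469). Cotl1, whose protein binds 5-lipoxygenase, rose from 515 to 557 CPM to 651 to 697 CPM (0.31, SE 0.06, edgeR adjusted p = 0.00993).

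The list of regulators of Ptgs2 mRNA held transcription factors and RNA-binding or kinase genes known to raise or limit it. In monocytes, where Ptgs2 fell, 3 of the 7 rose and none fell, against 10.2% and 5.12% of all tested genes. Cebpd rose from 49.9 to 59.1 CPM to 87.3 to 102 CPM (0.80, SE 0.09, edgeR adjusted p = 0.000728) and Cebpb from 325 to 389 CPM to 530 to 622 CPM (0.65, SE 0.09, edgeR adjusted p = 0.00208). Both encode C/EBP transcription factors, and both overlap exons of an opposite-strand gene (Spidr and Tmem189). Mapkapk2, a kinase that stabilises Ptgs2 mRNA, rose from 235 to 272 CPM to 336 to 401 CPM (0.48, SE 0.09, edgeR adjusted p = 0.00782). In neutrophils Cebpb ranged from 230 to 271 and 402 to 478 CPM and Cebpd from 28.9 to 35.7 and 49.6 to 57.8 CPM, apart in both. Neither passed the threshold (edgeR adjusted p = 0.0574 and 0.0823). Of the 7 genes, 4 were higher and 1 lower in every CTT library, against 13.6% and 11% of all tested genes. Zfp36, another of the 4, read 1760 to 2770 and 3340 to 4400 CPM (0.70, SE 0.20, edgeR adjusted p = 0.251).

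**Figure D5:**
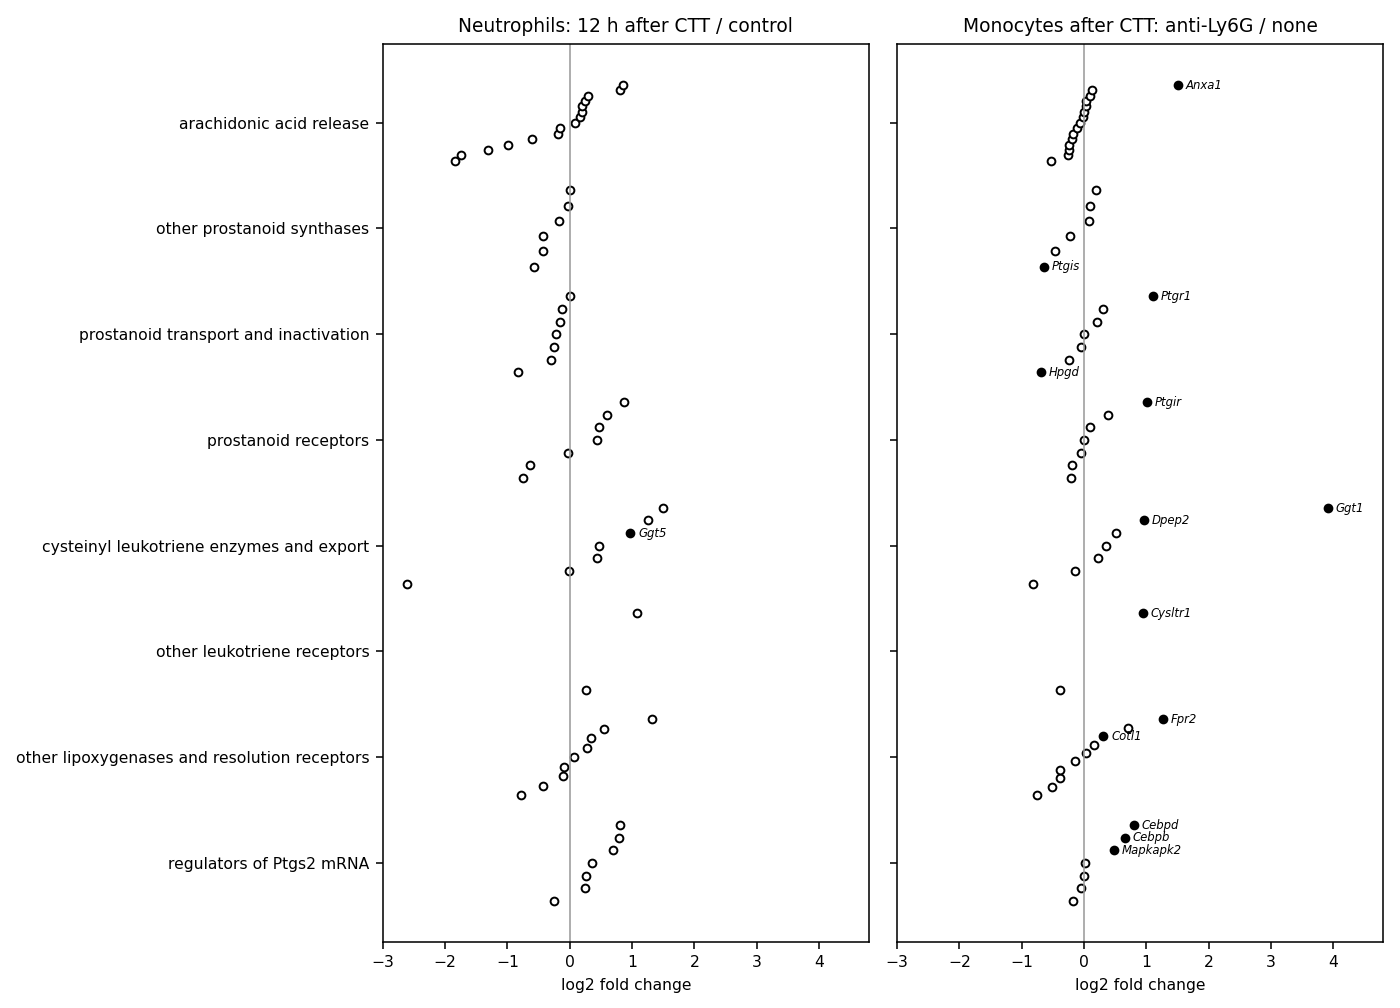
Log2 fold change (horizontal axis) of each tested gene of 8 further pathway lists (rows, sorted by value within a row), in neutrophils after CTT (left) and monocytes with anti-Ly6G (right); filled, named points passed an edgeR adjusted p of 0.05. In neutrophils Ggt5 (0.97) is filled; in monocytes 11 genes are filled on the rising side, up to Ggt1 at 3.91, and Ptgis and Hpgd on the falling side.

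The patterns of the members over the 12 libraries were compared. Pearson's r of log2 CPM was 0.995 between Ptgs1 and Tbxas1 and 0.954 between Ptgs1 and Hpgds, and 0.913 between Alox5 and Alox5ap and 0.916 between Alox5 and Ltb4r1. The prostanoid synthase gene Ptges had an r of 0.88 with Alox5, 0.856 with Alox5ap and 0.828 with Ltb4r1, against 0.222 with Ptgs1. Over the 12 pooled libraries Ptgs2 had a negative r with every other member, from -0.67 with Ltb4r1 to -0.233 with Alox5ap. These signs need not hold within a cell type. In neutrophils Ptgs2, Ptges, Alox5, Alox5ap and Ltb4r1 were all higher in every CTT library than in every control. Since cell type, capture antibody and table differ together between the 6 neutrophil and 6 monocyte libraries, these values are a description.

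Among 10329 genes (10330 for Ptges) of at least 5 CPM, the 3 closest to each member in pattern over the 12 libraries were named, with no p. Alox5 was closest to the calprotectin genes S100a8 (r = 0.987, and 0.998 within neutrophil and 0.984 within monocyte libraries) and S100a9 (0.986) and to Itgam (0.983), the integrin CD11b. Alox5ap was closest to Vcan (0.99), Gm14548 (0.981) and Tarm1 (0.978). Lta4h was closest to Chil3 (0.954), Cd177 (0.952) and Ltf (0.949), the last of which encodes the granule protein lactoferrin, and Ltb4r1 to Mapk13 (0.99), Pgam1 (0.982) and Lin28a (0.981).

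In the prostanoid arm, Ptgs1 was closest to Tbxas1, the complement gene C1qc (0.993) and Dst (0.992), Tbxas1 to Epb41l3 (0.995), Ptgs1 and Csf1r (0.994), the macrophage growth factor receptor, and Hpgds to the lysosomal phospholipase gene Pla2g15 (0.995), the mannose receptor gene Mrc1 (0.991) and Tpcn2 (0.991). C1qc and Csf1r are on the red pulp macrophage and monocyte marker lists, and S100a8, S100a9 and Ltf on the neutrophil list. Ptgs2 was closest to Rhbdd2 (0.954), Cnot2 (0.948) and 9930021J03Rik (0.946), and Ptges to Hp (0.913), Sqor (0.912) and Lrrfip2 (0.911).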

How the data were processed

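Per the labels' protocols, cells were selected from spleen with PE-coupled antibodies, RNA was taken up in TRIzol, and the library kit was VAHTS Universal V6. For each cell type the authors deposited 1 table of read counts (whole numbers) and 1 of FPKM values. The submitters' processing notes name HISAT2, HTSeq and mm10; no version, annotation or strand setting is stated there.

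Counts were tested in R 4.3.3 with edgeR 4.0.16, each table on its own: filterByExpr (13058 and 13294 genes kept), TMM scaling, the two-sided quasi-likelihood F test and Benjamini-Hochberg adjustment over all tested genes, threshold 0.05. CPM are TMM-scaled within each table, with the SD of 3 libraries. For r, the genes in both tables were TMM-scaled over the 12 libraries together. The SE of a log2 fold change is its size divided by the square root of F. The deposited FPKM were used for levels between genes and for ratios. Members and gene lists were chosen with earlier results of these data known. Besides the members, the text names each list's genes past the threshold (up to 6), or its 2 of smallest p, and for each member the 3 genes of highest r (at least 5 CPM on average, prior count 2). No library pair matched within counting error. Calling was tested on simulated data with 200 changed genes. Of changes of 1.5-, 2- and 4-fold, 1.49%, 12.1% and 80.3% were called in neutrophils. In monocytes these shares were 56.7%, 83.6% and 93.8%. False calls were 5 of 67 in neutrophils and 12 of 167 in monocytes. A neutrophil gene that did not pass may therefore still differ by 2-fold. Alternatives included DESeq2 1.42.0 and limma 3.58.1.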

Additional observations from a re-analysis of the deposited data

How the results depend on the processing

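In monocytes the rise of Alox5, Alox5ap, Lta4h and Ltb4r1 kept its direction and stayed past the threshold under every alternative run. Over all settings but those leaving out a library, member values in monocytes kept their call in 71 of 81 and gained one in 10 (Ptges or Tbxas1), and in neutrophils 73 of 80 kept it, 5 lost it (Alox5ap) and 2 gained it (Ptgs2 and Alox5 in DESeq2). With 1 library left out, 6 of 54 member values in monocytes lost their call and 3 gained one, and 5 of 54 in neutrophils lost it. Members risen in neutrophils numbered 3 with DESeq2 and 0 with library totals, limma-voom, log2(FPKM + 1), log2(FPKM + 0.1) or the replicate block, and 0 to 1 with 1 library left out. Members fallen in monocytes numbered 0 to 4 with 1 library left out.

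Of all neutrophil genes, 441 rose and 106 fell with DESeq2, 44 and 1 with log2(FPKM + 1), and 1 fell with log2(FPKM + 0.1). Without 1 library, 0 to 257 rose and 0 to 31 fell. Of all monocyte genes 1185 fell with DESeq2, and without 1 library 706 to 1687 rose and 177 to 1168 fell. Signs turned in neutrophils for Ptgs1 (0.13 without control replicate 1, 0.10 without CTT replicate 1; range without 1 library -0.23 to 0.13), Tbxas1 (0.15 and 0.16; range -0.14 to 0.16) and Lta4h (-0.04 without CTT replicate 3; range -0.04 to 0.19). The cause was not tested, and none of these 3 genes was called. Ptges could not be fitted in neutrophils with a minimum of 1 CPM in 3 libraries.

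The replicate numbers were not taken to pair the libraries: deviations of same-numbered libraries correlated at 0.199, 0.00548 and 0.189 in neutrophils and at 0.0651, -0.0267 and 0.0868 in monocytes, and not every library correlated best with its own number. With the replicate block, 4 neutrophil genes rose and 1 fell, and 1043 monocyte genes fell. Alox5ap in neutrophils then had an adjusted p of 0.111 and Tbxas1 in monocytes one of 0.0397 (edgeR). Ptges, at about 1 CPM, is the member that depth limits most.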
